A study of Rattus norvegicus with 7 samples.

Results

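Genes whose level differed between the replicate 1 and replicate 3 libraries in the same direction on both polymer films were examined. Members were the genes for which replicate 3 minus replicate 1 on log2(FPKM + 1) was over 1, or under -1, on the PCL film and again on the ISB-P film, where FPKM is a fragment count scaled for transcript length and library size. They were chosen by the measured values of the PCL 1, PCL 3, ISB-P 1 and ISB-P 3 libraries. Among the 9467 tested genes, those that reached 1 FPKM in 3 or more of the 6 film libraries, 278 (2.94%) were higher in replicate 3 on both films and 6 (0.0634%) were lower on both. The remaining 7680 of the 17147 listed genes were below the filter. Because these changes chose the genes, they are described here without a test.

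The cells were rMSCs, mesenchymal stem cells isolated from the bone marrow of a male Sprague-Dawley rat aged 6 weeks, and 20000 of them were seeded on each surface and collected after 4 h. Polyadenylated RNA was measured in 3 libraries from PCL, a polycaprolactone film, in 3 from ISB-P, a film of the polycaprolactone-polyurethane copolymer that contains propoxylated isosorbide, and in 1 from TCP, the uncoated tissue culture plastic. Films were 16 mm across, and the labels give no other treatment. Neither the labels nor the methods say whether libraries 1, 2 and 3 of a film came from separate cultures or days, and the methods describe a single rat as the source of the cells, so p-values measure only the spread between these libraries, which may be technical.

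The genes that follow belong to a few well-studied processes. Ubiquitin is attached to proteins by a relay of activating, conjugating and ligating enzymes, among which the cullin ligases are themselves switched on by the ubiquitin-like protein NEDD8. Cargo moves between the endoplasmic reticulum, Golgi and cell surface in vesicles that are formed by coats, steered by Rab proteins and fused by SNARE proteins. Cohesin and the related SMC complexes hold and compact chromosomes, and centromere and spindle proteins separate them in mitosis.

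The libraries carried the markers of the labelled cell type. Of 13 mesenchymal stem cell genes in the tables, 12 reached 1 FPKM, with Thy1 at 925 to 1056 FPKM on the films, and Col1a2 was listed at 0 in all 7 libraries. The summed level of that list was 19745 FPKM in PCL replicate 1, 16478 in PCL replicate 3, 20030 in ISB-P replicate 1 and 14979 in ISB-P replicate 3. Its genes did not move together: 5 of 12 tested were higher in replicate 3 than in replicate 1 on each film. From replicate 1 to replicate 3 on PCL, Itgb1 was 455 and 848 FPKM and Col1a1 6058 and 4610. On ISB-P they were 518 and 1164, and 6010 and 3868. Macrophage and monocyte genes summed to between 51.5 and 63.0 FPKM on the films and 166.8 on TCP, with no member among the shared genes, and endothelial and blood genes summed to 2.37 or less on the films. All listed genes together summed to 542921 FPKM in PCL replicate 1 and 597954 in PCL replicate 3, and to 592929 and 660124 on ISB-P. The part of these differences in the results below was not tested beyond rescaling the libraries.

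Most members differed by a little over 2-fold on PCL and by somewhat more on ISB-P. The median change of the 278 genes was 1.12 on PCL (quartiles 1.06 and 1.22) and 1.49 on ISB-P (quartiles 1.33 and 1.62), whereas the median over all tested genes was 0.11 and 0.08. The change was larger on ISB-P than on PCL for 271 of the 278, and, with its sign kept, for 4437 of all 9467 tested genes. Fewer genes were over 1 on PCL (307) than on ISB-P (922), so the rule partly sets the count of 271. On PCL the median level of the 278 was 14.8 FPKM in replicate 1, 25.8 in replicate 2 and 35.1 in replicate 3. On ISB-P it was 17.1, 26.8 and 52.2. Together they made up 1.49% of the summed FPKM in PCL replicate 1, 3.07% in PCL replicate 3, 1.66% in ISB-P replicate 1 and 4.28% in ISB-P replicate 3. The lists of the films overlapped unequally: the shared genes were 90.6% of the 307 genes over 1 on PCL (3.24% of tested genes) and 30.2% of the 922 over 1 on ISB-P (9.74%). Of the 922, 918 were above 0 on PCL, with a median of 0.89. Downwards, the 6 shared genes were 40% of the 15 genes under -1 on PCL (0.158%) and 4.62% of the 130 on ISB-P (1.37%). At the threshold itself, the smaller change of the 2 films was 1.00 for Gtf2h5, the last gene inside, and 0.999 for Arl8b, the first outside.

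**Figure D1:**
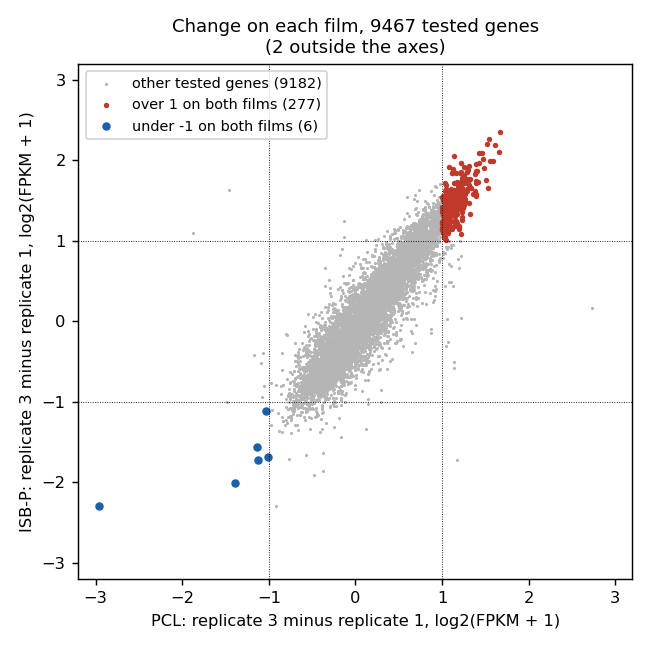
Each point is a tested gene, placed by replicate 3 minus replicate 1 on log2(FPKM + 1) on PCL (horizontal axis) and on ISB-P (vertical axis); dotted lines mark 1 and -1, red points are genes over 1 on both films and blue points genes under -1 on both. The red points hold 277 of the 278 genes, since Mir3074 and 1 other tested gene lie outside the axes, and the cloud of points runs steeper than equal change on both films.

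Scaling of the libraries decided how many genes passed. The median change of all tested genes was -0.07 on PCL and -0.14 on ISB-P after upper quartile scaling, -0.03 and -0.04 after quantile normalization, and -0.01 and -0.06 after scaling to a common total. The genes past 1 on both films then numbered 83 higher and 25 lower, 119 higher and 18 lower, and 134 higher and 12 lower, so that the share higher in replicate 3 was 76.9%, 86.9% and 91.8% in place of 97.9%. Under each of these scalings, all 278 genes were still higher in replicate 3 on both films by more than 0.5, the lowest by 0.76, and all 6 lower genes were still past -1. That the 278 stayed higher in replicate 3 under each scaling was largely set in advance by their choice for changes over 1. Their number depended on the scale.

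The replicate 2 libraries lay between the other 2 for almost every member, but not at the same place on both films. The position of replicate 2 was expressed as its share of the way from replicate 1 to replicate 3 on the log2 scale. For the 278 genes its median was 0.70 on PCL (quartiles 0.62 and 0.79) and 0.43 on ISB-P (0.37 and 0.49). Replicate 2 was strictly between for 273 of them on PCL and for 277 on ISB-P, and for 98.2% on both films, against 51.5% of all tested genes. These shares are partly set by the choice of genes with widely separated end points. The exceptions on PCL were Moap1, Snhg4, Alg13, Zdhhc21 and Mir3074. Mir3074 was also the exception on ISB-P.

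**Figure D2:**
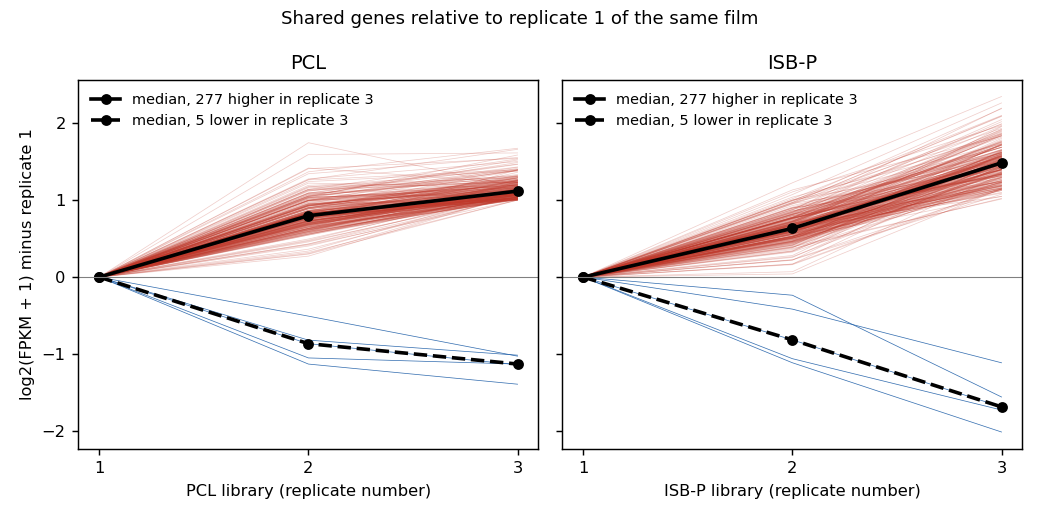
Lines give log2(FPKM + 1) of each shared gene minus its value in replicate 1 of the same film, on PCL (left) and ISB-P (right); red lines are genes higher and blue lines genes lower in replicate 3, and black lines with points are their medians. Mir3074 and LOC681419, which are listed at 0 in some libraries, are left out. Replicate 2 sits nearer to replicate 3 on PCL and nearer to the middle on ISB-P.

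Genes of the ubiquitin relay were among the members with the largest changes. Ube2v2, an inactive partner that directs a ubiquitin-conjugating enzyme to build lysine-63 chains, was at 16.1, 43.2 and 53.7 FPKM on PCL in replicates 1, 2 and 3, in that order, and at 20.1, 48.3 and 106 on ISB-P, changes of 1.68 and 2.35. Its values on the 2 films were close in replicates 1 and 2 and apart in replicate 3. Rnf138, a ubiquitin ligase, was 6.06, 17.8 and 19.6 FPKM on PCL and 10.3, 22.7 and 53.2 on ISB-P. Trim59, another RING-type ligase, was 13.1, 28.2 and 39.5 on PCL and 12.6, 23.9 and 61.3 on ISB-P. In each of these genes replicate 1 was the lowest of the 3 libraries on both films. Zfand5, a zinc finger protein that binds ubiquitin and the proteasome, was higher in level, at 56.8, 124 and 159 FPKM on PCL and 81.3, 147 and 333 on ISB-P.

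Counted by family, 6 of 28 tested Ube2 genes were higher in replicate 3 on both films, namely Ube2v2, Ube2a, Ube2b, Ube2d3, Ube2g1 and Ube2k. The most abundant of them, Ube2d3, was 200 FPKM in PCL replicate 1 and 418 in replicate 3, and 273 and 694 on ISB-P. Of the activating enzymes of ubiquitin and NEDD8 and the NEDD8 ligase subunits Dcun1d, 3 of 11 were members: Uba6 (changes of 1.29 and 1.73), Uba3 (1.21 and 1.60) and Dcun1d1 (1.26 and 1.72). Of 7 cullins, the scaffolds of modular ligases, 2 were members, Cul3 with changes of 1.25 and 1.80 and Cul5 with 1.08 and 1.36, and 6 of the 7 were above 0 on each film. The deubiquitinases Uchl5, Usp14 and Usp45 were members among 41 of the Usp and Uch genes. Of 75 Rnf and Trim ligases only Rnf138, Trim59 and Rnf139 were. The median change was 0.36 on PCL and 0.37 on ISB-P for the Ube2 genes and 0.88 and 1.36 for the cullins, and both stayed above 0 under every scaling. It was 0.08 and 0.14 for the Rnf and Trim ligases, which is near the median of all genes and below 0 under upper quartile scaling. These 5 lists were written after the members were seen, so their counts describe the members and are no evidence about the families.

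The proteasome, which degrades ubiquitin-tagged proteins, had 2 members among 39 tested subunits, a share of 5.13%. Psmc6, an ATPase of the regulatory particle, was 50.2, 101 and 133 FPKM on PCL and 69.5, 120 and 234 on ISB-P. Psma3l, a copy of a core subunit gene whose reads its paralog could share, was 120 and 247 in replicates 1 and 3 on PCL and 137 and 363 on ISB-P. The median of all 39 was 0.24 on PCL and 0.30 on ISB-P, and -0.03 on ISB-P after quantile normalization.

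Vesicle transport genes were the single list with the most members, at 13 of 114 tested genes (11.4%, against 2.94% of all tested genes). This long list joins the Rab, Tmed, Yipf, Trappc, Vamp, clathrin adaptor, Bet1 and Sec2 families and was also written after the members were seen. Its count and median therefore describe the members and are no evidence about vesicle transport. Trappc2, a subunit of the TRAPP complex that tethers vesicles at the Golgi, was 9.54, 20.7 and 30.7 FPKM on PCL and 11.3, 22.8 and 47.7 on ISB-P. Ap1s2, a small subunit of the AP-1 clathrin adaptor, was 6.08, 14.6 and 19.5 on PCL and 7.43, 14.5 and 25.5 on ISB-P. Rab11a, a regulator of recycling endosomes, was 57.9, 121 and 147 on PCL and 65.1, 117 and 207 on ISB-P. For all 3 genes the films had nearly equal levels in replicate 2. Tmed7, a cargo receptor of the early secretory pathway, had almost equal changes on the films, 1.32 and 1.34. The other 9 were Bet1, Rab8b, Tmed5, Ap1s3, Yipf4, Vamp4, Yipf6, Rab18 and Trappc6b. No gene of the list was under -1 on either film, and the median of the 114 was 0.23 on PCL and 0.28 on ISB-P, above 0 under every scaling.

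Several of the most changed members act in signalling, transcription and the cytoskeleton. Dynlt3, a light chain of the dynein motor, was 14.8, 37.0 and 48.9 FPKM on PCL and 19.7, 41.0 and 87.9 on ISB-P. Mob4, a subunit of the STRIPAK phosphatase complex, was 19.5, 51.0 and 59.2 on PCL and 26.4, 49.7 and 108 on ISB-P. Asf1a, a histone chaperone, was 7.48, 19.5 and 23.0 on PCL and 9.77, 17.3 and 35.3 on ISB-P. For these 3 genes replicate 2 was nearer to replicate 3 than to replicate 1 on PCL and close to midway on the log2 scale on ISB-P. Ccnc, the cyclin of the Mediator kinase module, was 16.6, 36.5 and 47.6 on PCL and 20.3, 40.8 and 89.8 on ISB-P. Gulp1, an adaptor in the engulfment of dying cells, was 9.47, 21.3 and 27.3 on PCL and 20.4, 40.9 and 90.5 on ISB-P, and was higher on ISB-P in every replicate. Scoc, a Golgi coiled-coil protein, was 28.4, 60.4 and 81.6 on PCL and 29.7, 48.4 and 114 on ISB-P.

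Translation factors held 8 members among 59 tested genes, a share of 13.6% against 2.94% of all tested genes. Eif4e, which binds the cap of messenger RNA, was 76.1, 146 and 182 FPKM on PCL and 102, 175 and 304 on ISB-P. Eif1a, of the scanning ribosome, was 90.0, 153 and 204 on PCL and 127, 181 and 299 on ISB-P. Eif5, which triggers GTP hydrolysis at the start codon, was 83.5, 133 and 185 on PCL and 131, 194 and 405 on ISB-P. Eif5a2, a homolog of the elongation factor eIF5A, was lower in level, at 3.21, 6.10 and 8.36 on PCL and 4.57, 8.22 and 13.2 on ISB-P. The remaining 4 were Eif4a2, Eif3j, Eif3e and Eif2a. The median of the 59 was 0.25 on PCL and 0.20 on ISB-P, and -0.03 on ISB-P after upper quartile scaling. The list as a whole therefore lay close to the median of all genes, while 8 of its members were far from it.

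The ribosome itself was not among the shared genes. None of 75 tested cytosolic ribosomal protein genes was a member, and their median change was 0.08 on PCL and 0.09 on ISB-P. Rplp1, of the ribosomal stalk, was 3063, 4271 and 4227 FPKM on PCL and 4117, 4815 and 3753 on ISB-P, and its values on the films overlapped across replicates. Of 65 mitochondrial ribosomal protein genes, Mrps14 (changes of 1.20 and 1.18) and Mrps36 (1.05 and 1.50) were members. The respiratory chain list gave Ndufab1, Ndufa4 and the assembly factor Ndufaf4 among 77 genes, a share of 3.9%. Ndufa4 was 132, 244 and 287 FPKM on PCL and 136, 246 and 382 on ISB-P. These shares lie near that of all tested genes. Genes encoded in the mitochondrial DNA were not analysed here.

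RNA processing genes were represented by 2 of 55 splicing factors, a share of 3.64%. Srsf1, an SR protein of constitutive and alternative splicing, was 58.1, 121 and 153 FPKM on PCL and 79.0, 146 and 246 on ISB-P, and Srsf6, of the same family, was 46.6, 85.8 and 106 on PCL and 60.0, 95.9 and 138 on ISB-P. The 55 genes had a median of 0.30 on PCL and 0.36 on ISB-P, above 0 under every scaling. Of 157 tested Zfp and Znf zinc finger genes, 7 were members (4.46%). Zfp455 was the most changed, at 2.54, 4.76 and 7.10 on PCL and 4.02, 6.69 and 13.8 on ISB-P. Zfp709l1, Zfp706 and Zfp958 followed. None of 22 chromatin regulators was a member, but the list is too short to set this against the 2.94% of all tested genes. Their median was 0.25 on PCL and 0.35 on ISB-P. Smarca4, the ATPase of a chromatin remodelling complex and among the highest of them by level, was lower in replicate 3 than in replicate 1, with changes of -0.37 on PCL and -0.71 on ISB-P.

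Among lists of 5 or more tested genes, SMC and cohesin genes had the highest share of members, in a list again written after the members were seen. Its rank and values therefore describe the members and are no evidence about the family. Of 9 genes, 4 were members (44.4%, against 2.94% of all tested genes) and all 9 were above 0 on both films, with medians of 0.96 and 1.34. Smc6, of the SMC5/6 repair complex, was 17.6, 27.1 and 42.5 FPKM on PCL and 16.7, 23.8 and 57.7 on ISB-P. Smc4, of condensin, was 25.6, 40.3 and 60.6 on PCL and 28.4, 38.2 and 87.9 on ISB-P. Stag2, a cohesin subunit, had changes of 1.15 and 1.53, and Smc5 had 1.03 and 1.50. For Smc6 and Smc4 the replicate 2 value was closer to replicate 1 than to replicate 3 on ISB-P.

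Of 29 genes of the replication origin, centromere and spindle, a list also written after the members were seen, 8 were members (27.6%), with medians over the list of 0.61 on PCL and 0.87 on ISB-P. Orc4 and Orc2, of the origin recognition complex, had changes of 1.21 and 1.53, and of 1.09 and 1.47. Cenpi, of the inner kinetochore, was 10.8, 18.97 and 23.7 on PCL and 11.9, 20.3 and 37.5 on ISB-P. Sgol2, Haus3, Cenpw and Ska2 were also members. The median stayed above 0 under every scaling for this list and for the SMC and cohesin list. Because both were written after the members were seen, this is no evidence about the families.

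The lists of mitosis and DNA replication genes held members at shares near the 2.94% of all tested genes. Of 28 mitosis genes 1 passed (3.57%), Ect2, an activator of RhoA in cytokinesis, at 8.78, 14.7 and 18.97 on PCL and 9.20, 12.2 and 19.8 on ISB-P. The list as a whole leaned the same way, with 23 of 28 genes above 0 on each film and medians of 0.37 and 0.44 that stayed above 0 under every scaling. Of 39 replication genes 1 passed (2.56%), Ccne2, a G1/S cyclin, with changes of 1.11 and 1.61. The replication-dependent histones did not move together: the median of 12 genes was 0.08 on PCL and -0.51 on ISB-P, and none was a member. Among the genes of these lists, Cenpf, Orc1 and Orc6 are also in the centromere and origin list above.

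Stress and metabolic lists held at most 2 members each. Among 68 heat shock and Dnaj genes, which as a family are chaperones, Dnajc19 and Dnajb9 were members (2.94%). Dnajc19, of the mitochondrial import motor, was 5.07, 13.4 and 14.8 FPKM on PCL and 5.60, 13.5 and 22.5 on ISB-P, and Dnajb9, an endoplasmic reticulum cochaperone and the only member among 22 genes of that compartment, had changes of 1.04 and 1.62. Sterol synthesis gave Idi1 (1.16 and 1.44) and Msmo1 (1.07 and 1.28) among 29 genes (6.9%), the hypoxia list gave Bnip3 among 32, and interferon-stimulated genes gave B2m (1.23 and 1.35) and Ifi44 (1.00 and 1.24) among 23 (8.7%). The 34 genes of the ATF4 and amino acid response were the only list with members in both directions, Slc7a11, the cystine transporter, higher and Cebpb lower in replicate 3. No gene of the NRF2, p53, immediate early, circadian, glucocorticoid, chemokine, lysosome, bone or adipogenic lists was a member. These lists held 7 to 31 tested genes each. With 2.94% of all tested genes as members, a list of this length without any is no result about its pathway.

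Collagen and actin genes leaned the other way, although no gene of either list was a member. None of 16 collagens was a member, 12 of them were below 0 on each film, and their median was -0.29 on PCL and -0.49 on ISB-P. Col1a1, the main chain of type I collagen, was 6058, 5439 and 4610 FPKM on PCL and 6010, 4928 and 3868 on ISB-P. For the 22 actin and SRF target genes the median was -0.22 and -0.31, with 20 below 0 on each film, and Actb was 3569, 3002 and 2705 on PCL and 3532, 2647 and 2056 on ISB-P. Both genes had their highest value in replicate 1 on both films. TGF-beta and BMP targets had medians of -0.21 and -0.29, immediate early genes -0.17 and -0.43, and YAP targets -0.18 and -0.23, with no member in 15, 31 and 16 tested genes. All of these medians stayed below 0 under every scaling. The lack of members in lists this short is no result beside the 2.94% of all tested genes. The 1 member of the matrix list was Has2, a hyaluronan synthase, which was higher in replicate 3, at 66.6, 107 and 136 FPKM on PCL and 84.8, 117 and 218 on ISB-P. Of the 278 genes, 37 were in the lists fixed at the start and 79 in any list, so that most members belonged to none.

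**Figure D3:**
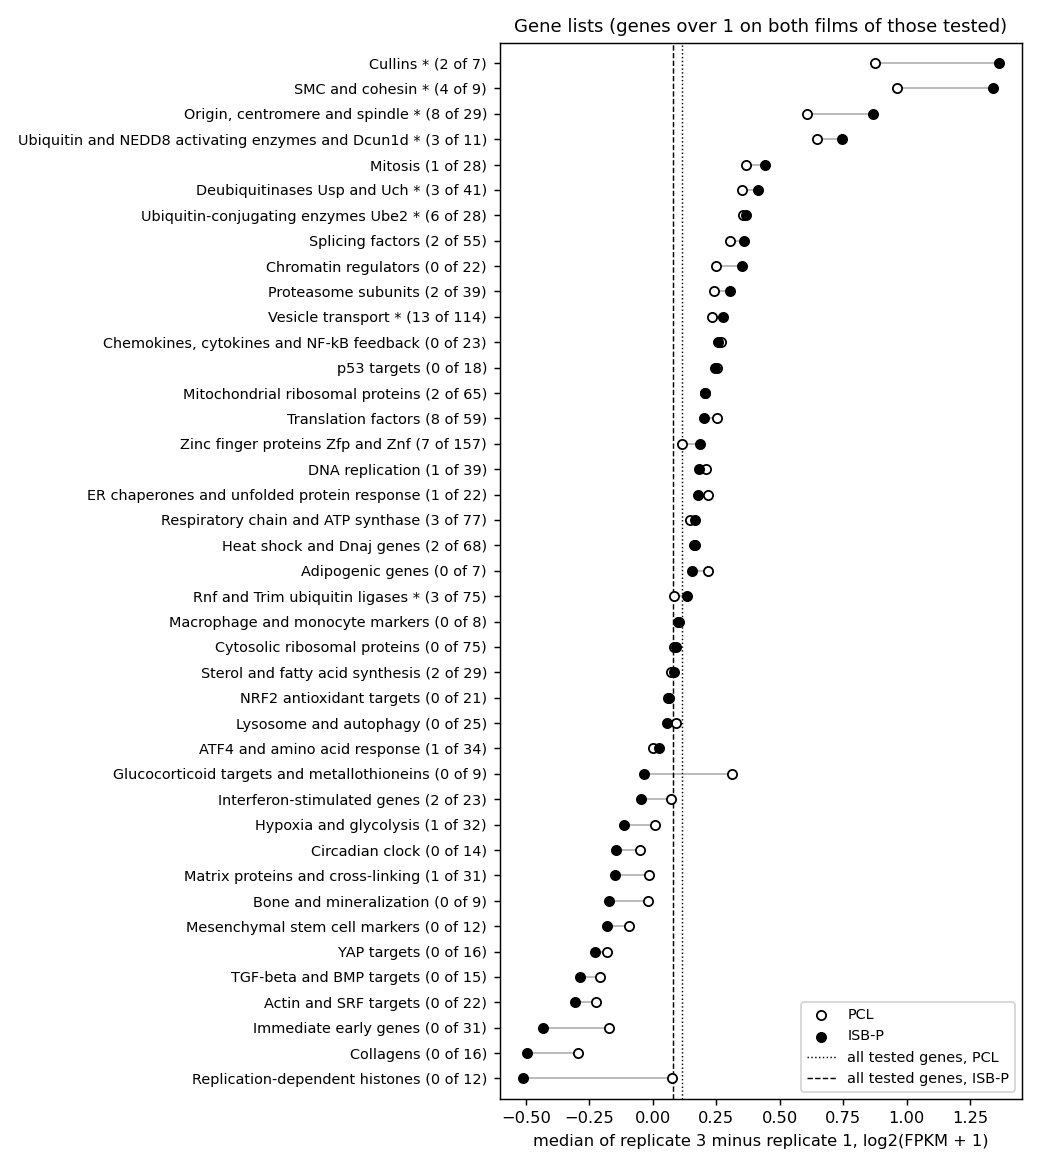
Each row is a gene list with 5 or more tested genes; open circles give the median of replicate 3 minus replicate 1 on log2(FPKM + 1) on PCL, filled circles the same on ISB-P, and vertical lines the medians of all tested genes. Numbers in brackets are genes over 1 on both films of those tested, and asterisks mark lists written after the members were seen. Cullins and the SMC and cohesin genes lie farthest to the right, collagens lie farthest to the left on PCL, and histones, collagens and immediate early genes on ISB-P.

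The 6 genes lower in replicate 3 were few and of mixed function. Hmga2, a chromatin protein that binds AT-rich DNA, was 32.9, 14.5 and 11.9 FPKM on PCL and 43.6, 19.6 and 10.0 on ISB-P, changes of -1.39 and -2.01. Plec, which encodes the large cytoskeletal linker plectin, was 106, 50.7 and 47.9 on PCL and 129, 61.1 and 38.1 on ISB-P. Cebpb, a transcription factor of inflammation and differentiation, was 128, 70.0 and 57.7 on PCL and 125, 106 and 41.7 on ISB-P. On PCL most of the difference lay between replicates 1 and 2, and for Cebpb on ISB-P most of it lay between replicates 2 and 3. The other 3 had lower levels and are named after their values were seen. Dact3, an inhibitor of Wnt signalling, had changes of -1.02 and -1.69, and Crtc1, a coactivator of CREB, had -1.03 and -1.11. LOC681419, an uncharacterized locus, was listed at 6.76, 0.319 and 0 on PCL and at 3.89, 5.18 and 0 on ISB-P.

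By transcript class, 274 of the 278 higher genes were protein coding in the RefSeq annotation, 1 was a long non-coding RNA, 1 was a microRNA gene and 2 were not matched. Over all tested genes 14 were long non-coding RNAs and 2 were microRNA genes. The non-coding member Snhg4, a small nucleolar RNA host gene, was 7.45, 27.4 and 18.1 FPKM on PCL and 16.4, 17.2 and 42.9 on ISB-P. Its replicate 2 was the highest library on PCL and close to replicate 1 on ISB-P.

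The microRNA gene Mir3074 had the largest change of any member, from values listed at 0. It was listed at 0, 0 and 45.9 FPKM on PCL, at 0, 109 and 34.4 on ISB-P and at 435 on TCP. The values followed no common order of the replicates, and a value of 0 in these tables can be a failed estimate, so no fold is given. Of 424 microRNA genes in the tables, 419 were listed at 0 in all 7 libraries. The Mir3074 hairpin spans 117 bases on the plus strand and overlaps Mir24-1, transcribed from the opposite strand and listed at 0 in all 7 libraries. The counting is not stated to use strand, so reads of the 2 genes cannot be told apart. The mature sequences of the locus are given here from RefSeq on GRCr8 to show this overlap, with the seed, bases 2 to 8, in capitals. They lie at chr17:1818712-1818733 on the plus strand for rno-miR-3074, and at chr17:1818672-1818693 and chr17:1818710-1818731 on the minus strand for the others.
rno-miR-3074: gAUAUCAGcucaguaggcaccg
rno-miR-24-3p: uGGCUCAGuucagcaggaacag
rno-miR-24-1-5p: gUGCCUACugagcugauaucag
The 3 seeds are all different, and the FPKM values come from libraries of long RNA and do not measure these mature forms.

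The members differed from other genes in where they lie in the genome, a property the choice of genes did not use. Chromosome and neighbours were taken from the GRCr8 annotation, in which 281 of the 284 members were found. On the X chromosome 28 of 267 tested genes were higher in replicate 3 on both films (10.5%), on chromosome 2 40 of 632 (6.33%) and on chromosome 6 24 of 408 (5.88%). The lowest shares were on chromosome 12, with 1 of 319 (0.313%), on chromosome 19, with 1 of 295 (0.339%), and on chromosome 15, with 2 of 272 (0.735%).

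The surroundings of the gene differed as well. Members higher in replicate 3 had a median of 8 other protein-coding genes within 500000 bases on each side (quartiles 5 and 11.2), whereas all tested genes had 15 (8 and 26). The 5 lower genes with a position had a median of 29. With the tested genes split into 4 classes of equal size by the number of neighbours, the share of members was 6.39% in the class with the fewest, then 3.86%, 1.37% and 0.214% in the class with the most, or 149, 90, 32 and 5 genes. The median change over all genes of a class followed the same order, from 0.36 on PCL and 0.43 on ISB-P where neighbours were fewest to -0.15 and -0.31 where they were most. After upper quartile scaling the shares were 1.84%, 1.2%, 0.471% and 0%, and after scaling to a common total 3%, 1.84%, 0.729% and 0.0857%, so that their order did not depend on the scale. Within the X chromosome they were 18.7%, 11.1%, 4.65% and 0%, and on chromosomes 1 to 20 5.89%, 3.6%, 1.31% and 0.219%.

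Members also differed from other genes in mean level over the film libraries, which their choice partly set. The median level of the 278 genes over the film libraries was 29.6 FPKM, against 16.6 for all tested genes, and the share of members was 0.676% in the lowest of 4 equal classes of mean level and 4.65% in the highest. This mean includes the replicate 3 libraries, in which members were chosen as high. Their median was 14.8 FPKM in PCL replicate 1 and 17.1 in ISB-P replicate 1, where they were chosen as low, and 15.1 on TCP. On this scale the addition of 1 FPKM reduces the change of low genes, and with 0.1 FPKM added instead 404 genes passed. From the fewest to the most neighbours, the shares were 9.03%, 6.89%, 2.9% and 0.166% in the highest class of level and 9.03%, 4.26%, 2.08% and 0% in the next. They were 7.43%, 2.93%, 0.166% and 0.357% in the class below that, and 0.643%, 1.23%, 0.352% and 0.359% in the lowest, so that the order was not kept throughout at lower levels. The genomic span had a median of 27782 bases for the members and 23400 for all tested genes, with quartiles that overlapped widely. A comparison of promoter base composition is void, because only 79.9% of the 278 genes had a promoter sequence in the table used.

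**Figure D4:**
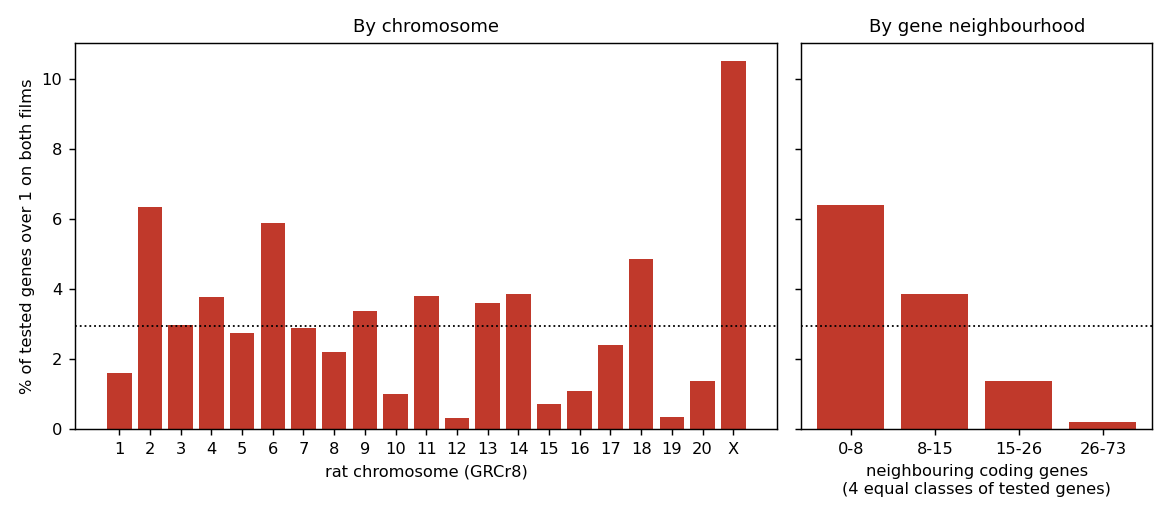
Bars give the percentage of tested genes that were over 1 on both films, by rat chromosome (left) and by class of the number of protein-coding genes within 500000 bases on each side (right, with the range of that number, where tied genes are divided between classes). Dotted lines mark the 2.94% of all tested genes, which the X chromosome and the class with the fewest neighbours exceed most.

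The promoters of a few strongly changed genes are shown for reference, as the 100 bases before the transcription start in RefSeq on GRCr8, since they are the regulatory sequence nearest to genes that moved together. Genes without an available promoter sequence, and higher genes on chromosome 18, were passed over. Some members with larger changes, such as Ube2v2 and Dynlt3, are therefore not shown. Capitals mark letters searched on both strands, namely the core promoter box TATAAA, the NF-Y motif CCAAT, the SP1 motif GGGCGG and the ETS motif CCGGAAG, which do not overlap in the windows shown and which occur in 5.78%, 17.1%, 21.6% and 4.73% of 33469 windows of this length before rat genes. Of the genes higher in replicate 3, Trappc2 (chrX:31646914-31647013, minus strand) held an ETS motif, Mob4 (chr9:64111689-64111788, plus strand) held 3 SP1 motifs and Trim59 (chr2:155590007-155590106, minus strand) held none of the 4. Of the genes lower in replicate 3, Hmga2 (chr7:57880342-57880441, minus strand) held none and Cebpb (chr3:176816905-176817004, plus strand) held a core promoter box and an SP1 motif.
Trappc2: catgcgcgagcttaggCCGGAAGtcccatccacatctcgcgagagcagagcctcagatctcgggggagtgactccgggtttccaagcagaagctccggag
Mob4: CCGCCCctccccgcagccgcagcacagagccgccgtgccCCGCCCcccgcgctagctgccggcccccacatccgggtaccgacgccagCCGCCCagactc
Trim59: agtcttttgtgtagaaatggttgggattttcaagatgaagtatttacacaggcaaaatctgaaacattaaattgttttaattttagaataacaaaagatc
Hmga2: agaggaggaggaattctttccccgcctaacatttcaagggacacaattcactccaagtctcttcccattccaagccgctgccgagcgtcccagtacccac
Cebpb: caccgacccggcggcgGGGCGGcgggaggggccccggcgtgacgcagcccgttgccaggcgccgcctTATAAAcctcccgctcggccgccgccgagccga
G and C made up 80% of the bases shown for Mob4 and for Cebpb, which changed in opposite directions, and 27% of those for Trim59. A match is a string of letters and was not tested for binding.

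By symbol, 63 families of 15 or more tested genes were counted, and 36 of them had at least 1 member higher in replicate 3. The share was highest for Ube genes, at 7 of 33 (21.2%), through the 6 conjugating enzymes and the ligase Ube3a. Eif genes followed at 8 of 52 (15.4%). The next were symbols beginning with C and a digit (10%), Ap (7.69%), Mrps (7.14%), and Atg and Dhx (6.67% each), with 1 or 2 members each. A single family had a member lower in replicate 3.

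Set against the TCP library, the members were closest in level to replicate 1 of each film. With 1 TCP library there is no test. The median of TCP minus PCL over the 278 genes was 0.04 for replicate 1, -0.77 for replicate 2 and -1.09 for replicate 3, and that of TCP minus ISB-P was -0.17, -0.80 and -1.63. Over all tested genes these medians lay between -0.12 and 0.02. TCP was below PCL replicate 3 for 276 of the 278 genes and below ISB-P replicate 3 for 277, but below PCL replicate 1 for 119 and below ISB-P replicate 1 for 183. After each rescaling the median against PCL replicate 1 remained between 0.05 and 0.06. The genes were chosen for low replicate 1 and high replicate 3 values, which partly sets the order of these medians and counts. For the 6 lower genes TCP was below replicate 1 in 5 on each film and above replicate 3 in 5.

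**Figure D5:**
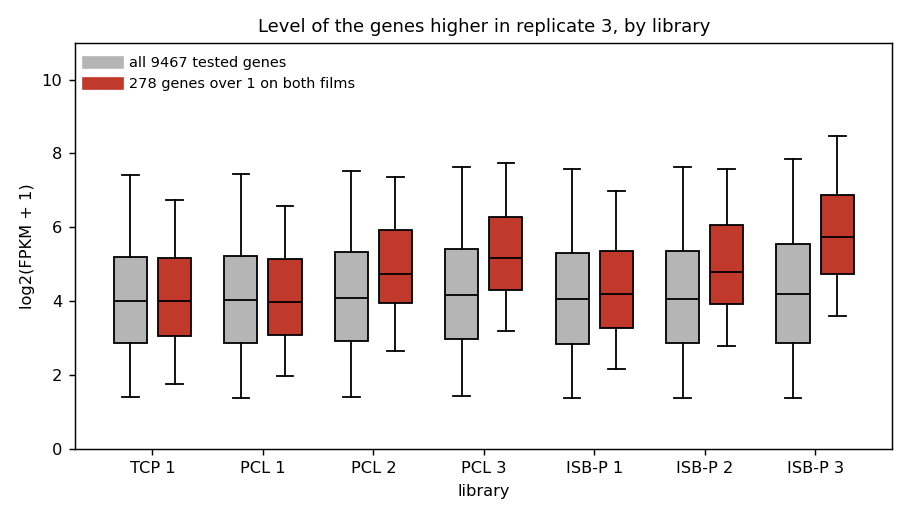
Boxes give log2(FPKM + 1) in each library for all tested genes (grey) and for the 278 genes over 1 on both films (red), with the median, the quartiles and whiskers to the 5th and 95th percentiles. The red boxes of TCP and of replicate 1 of each film are level with the grey ones, and those of ISB-P replicate 3 are the highest.

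A small group of members set TCP apart from every film library. For 16 of the 278 genes (5.76%, against 3.07% of all tested genes) TCP was more than 1 below each of the 6 film libraries on the log2 scale. These genes were named after their values were seen. They include Pbk, Cenpi, Cenpw, Ect2, Sgol2, Casc5, Smc4, Haus3, Ska2, Nabp1, Snhg4, Cks1b, Fancb, Trim59 and Slc7a11. Cenpi was 1.20 FPKM on TCP, against 10.8 in its lowest film library, and Pbk, a mitotic kinase, was 1.39 against 13.3. Slc7a11 was 0.287 on TCP and 9.44 to 98.6 on the films.

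The difference between the films was tested over all tested genes, but for the members it is no independent test. The averages hold the PCL 1, PCL 3, ISB-P 1 and ISB-P 3 values that chose them. In limma, with p-values adjusted over the tested genes, 163 genes differed between ISB-P and PCL (1.72%), 104 higher on ISB-P (1.1%) and 59 lower (0.623%). None of the 278 genes and none of the 6 was among them. At an unadjusted p under 0.05 there were 5 of the 278 and 0 of the 6, against 1145 of all tested genes (12.1%). The 5, named after their values were seen, were Slc7a11, Idi1, Msmo1, Chordc1 and Tnfaip6, all higher on ISB-P. The level of Slc7a11 was 15.8 ± 5.90 FPKM on PCL and 60.3 ± 34.3 on ISB-P (SD, n = 3 each), a log2 difference of 1.79 with a standard error of 0.44 (limma adjusted p = 0.136). All members were chosen for a wide spread between replicates of a film, which enters the error of this fit, as for Slc7a11. Few calls among them were therefore partly set in advance. These counts do not show that their levels were alike on the films.

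With the replicate number as a block, which removes the difference between replicates from the error, 2307 genes differed between the films (24.4%), 1228 higher on ISB-P (13%) and 1079 lower (11.4%). The block pairs libraries by title number, a pairing that the labels and methods do not state. Of the 278 genes, 87 were then higher on ISB-P (31.3%) and 3 were lower, namely Npl, Zfp958 and LOC100362431. Members were chosen for a difference shared by same-numbered libraries, which the block removes, and by values that enter this fit. Their counts and p-values here are therefore partly set by the choice and are no independent evidence of a film difference. Slc7a11 had an adjusted p of 3.1e-05 in this fit, Idi1 of 3.7e-05, Msmo1 of 9.7e-05, Chordc1 of 1.85e-04 and Tnfaip6 of 3.1e-04. Of the 6 genes Dact3 passed, lower on ISB-P, at 10.4 ± 6.32 FPKM against 14.2 ± 6.06 (SD, n = 3 each), with an adjusted p of 0.024.

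Within replicates, the median of ISB-P minus PCL over the 278 genes was 0.18 in replicate 1, 0.01 in replicate 2 and 0.51 in replicate 3, against 0.04, -0.02 and 0.01 over all tested genes. After scaling to a common total, the medians over the 278 genes were 0.07 in replicate 1 and 0.38 in replicate 3. On the values as deposited, 144 of the 278 were higher on ISB-P in all 3 replicates (51.8%), as were 30.5% of all tested genes. That count uses the libraries that chose the genes and was not repeated after rescaling. Chordc1, a cochaperone of Hsp90, was 29.4, 55.6 and 74.0 FPKM on PCL and 70.8, 117 and 263 on ISB-P, and Msmo1, of cholesterol synthesis, was 102, 170 and 215 on PCL and 206, 300 and 500 on ISB-P. In both genes the replicate 1 value on ISB-P was close to the replicate 3 value on PCL, so that the levels on the films overlapped although each replicate pair differed in the same direction. The larger change of the members on ISB-P and their film difference in replicate 3 rest on the same 2 replicate 3 libraries. The blocked fit was not repeated with libraries left out or after rescaling.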

How the data were processed

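The 7 libraries were made by the authors from polyadenylated RNA with a TruSeq stranded kit and read as paired ends. The submitters' processing notes name bcl2fastq 2.20.0.422, cutadapt 1.18, TopHat2 2.0.13, Cuffdiff 2.2.1 and build rn5, and the authors analysed the data with ExDEGA. The annotation and the strand setting are not given in the sources used here. The authors deposited 1 table per library with an FPKM value for 17147 gene symbols, read as FPKM from the named tools and the values. Read depth is unknown, so no counting interval or floor is given. Groups and replicate numbers follow the sample titles. The column headings inside the tables carry no number, 1 and 2 for PCL titles 1, 2 and 3, and no number, 2 and 3 for those of ISB-P, so that by headings PCL replicate 3 has the number of ISB-P replicate 2.

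Values were used as deposited, with 1 FPKM added before log2. The design had foreseen count tests in case of counts, and limma 3.58.1 (R 4.3.3; eBayes with a mean-variance trend, two-sided, Benjamini-Hochberg) was used on the 3 PCL and 3 ISB-P libraries. On simulated data for ISB-P against PCL, with 200 of 9467 genes changed by 2 on the log2 scale, it recovered 100% with 2 false calls. The simulated noise was independent between libraries and had the same spread for every gene, with no difference shared by replicates. This recovery therefore checks the code and does not give the power in these data. Libraries were paired by the replicate numbers of the titles, a pairing that the labels and methods do not state. Deviations from the film mean correlated across genes at 0.887, 0.431 and 0.867 between same-numbered libraries of the films. The highest value between differently numbered libraries was 0.177, for PCL 2 with ISB-P 3. These correlations use the same values as the members and do not show how the libraries were made. The members and lists were chosen with earlier results of these data known. Named genes were the 12 largest changes in each direction with a mean of at least 16 FPKM, up to 4 members of each list, the 2 most abundant genes of a list without members, and 6 symbol families; others are marked, and some genes that the rule would name are not reported here. Chromosomes and neighbours came from RefSeq GRCr8 (9332 tested symbols, 98.6%, matched), used for names and neighbourhood only, with sequences from the same build. Figures used matplotlib 3.10.9 in Python 3.11.15. Alternatives covered scaling, pseudocount, low-value filters, the size of change, the replicate block, TCP in the fit and each library left out.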

Additional observations from a re-analysis of the deposited data

Results flagged for a closer look

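For 3 tested genes replicate 3 minus replicate 1 was past 1 in opposite directions on the films, so that they are not among the shared genes. Defb41, a defensin gene, changed by -1.46 on PCL and by 1.64 on ISB-P, and was listed at no more than 2.11 FPKM in any library. RT1-CE11, a class I histocompatibility gene of a multigene family whose near-identical copies make it uncertain, changed by 1.17 on PCL and by -1.73 on ISB-P, with 2.31 FPKM or less in every library. Rpl37a-ps1, a ribosomal protein pseudogene that shares sequence with its parent gene, changed by -1.88 on PCL and by 1.09 on ISB-P and was listed at 0 in replicate 2 of both films. Each film has 1 library per replicate number, and the difference between the films in these changes was not tested.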

How the results depend on the processing

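The number of genes shared by both films depended on the scale. Upper quartile scaling gave 83 higher and 25 lower, quantile normalization 119 and 18, and scaling to a common total 134 and 12; all 83, 119 and 134 were among the 278. A pseudocount of 0.1 gave 18 lower genes, and a mean of at least 16 FPKM 3. A change over 0.5 gave 1903 and 401, and a change over 2 gave 1 and 1. With 1 replicate number left out, and the other 2 compared, the count of higher genes ranged from 1 (replicate 3 against 2) to 278 and that of lower genes from 0 to 7, and 8 genes were higher between replicates 2 and 1, of which 7 were among the 278. The gene higher in replicate 3 than in replicate 2 was not among the 278. The film difference called 108 genes after upper quartile scaling, 105 with 1 FPKM in all film libraries, 51 with a mean of 16 FPKM, and 20 to 113 with 1 library left out: 35, 20 and 42 without PCL replicates 1, 2 and 3, and 80 and 27 without ISB-P replicates 1 and 2. None of these called a shared gene, which the choice of those genes for a wide spread between replicates made unlikely. The replicate block called 2307, with 90 of the 278 genes and 1 of the 6, member counts that the choice of genes partly set. Of 18 lists with medians beyond 0.2 in the same direction on both films, medians on ISB-P turned to -0.0334 for mitochondrial ribosomal proteins and -0.0297 for translation factors after upper quartile scaling, and to -0.0332 for proteasome subunits after quantile normalization; the cause was not tested. Unknown depth limits what can be said of genes listed at 0.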
